A study of Rattus norvegicus with 11 samples.

Results

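Kidney macrophages of ZSF1 rats were studied as the cells that the authors' annotation names Macro, with the cells named Mono/Macro kept apart. There were 3859 such cells among 114615 cells from 11 animals, 3.37% of the whole. Macrophages of the kidney lie between the tubules and around the glomeruli, where they take up debris and dying cells and present antigen to T cells. They are renewed in part from blood monocytes, which the annotation names Mono. Genes that usually mark them are C1qa and C1qb, which encode chains of the complement component C1q, and Cd74, the chaperone of MHC class II molecules.

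Dissociated kidney cells went through single-cell RNA sequencing in droplets, where each captured transcript carries a unique molecular identifier (UMI). The groups were 3 obese rats given enalapril in their drinking water, 4 obese rats and 4 lean rats. Enalapril inhibits angiotensin-converting enzyme, and the series concerns blockade of the renin-angiotensin-aldosterone system in a rat model of diabetic kidney disease. All animals were males aged 12 weeks when obtained, and the labels give all of them the same genotype entry, ZSF1-LeprfaLeprcp/Crl, so that obese and lean rats are told apart by phenotype and not by a stated allele. The treatment entry is enalapril in the first group and none in the others, while the protocol says that the remaining obese rats drank the vehicle and does not say what the lean rats drank. Kidneys were perfused before they were digested, and 10000 cells were loaded per reaction.

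The deposited table gives each cell's type, group, UMIs, genes detected, mitochondrial share of UMIs, cell cycle scores and map position, but no value for any single gene. The name Macro therefore could not be checked against C1qa, C1qb or Cd74, and no gene is tested here. Libraries held 4232 to 18427 cells and a median of 407 to 3092 UMIs per cell, and 6 of the 11 held more cells than were loaded. Lean rat 2 stood apart: no cell in it had more than 1703 UMIs, and its 55 macrophages had 222 to 626. Enalapril-treated rat 1 was the next shallowest, with a median of 1132 UMIs over all cells. The main values that moved without either animal are also given without it. The sample codes share 6 stems, whose meaning is not stated, and each stem lies within 1 group, so anything they mark cannot be told apart from the group. All tests took animals that share a stem as independent, and whether they are was not tested. Of the 3859 macrophages, 99 (2.57%) had a barcode that also occurs in another library, against 2.86% of all cells, and 1 such barcode was a macrophage in both libraries.

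The first measurement was how much of the kidney suspension the macrophages made up. They were 1.18%, 3.42% and 4.55% of all cells in enalapril-treated obese rats 1 to 3, 5.48%, 5.71%, 4.36% and 3.40% in obese rats 1 to 4, and 2.68%, 1.30%, 3.56% and 2.27% in lean rats 1 to 4. Obese rats lay highest on average, but obese rat 4 lay just below lean rat 3, and the treated rats spanned nearly the whole range. Counting error was small beside the spread over all animals, with an exact 95% Clopper-Pearson interval of 0.981% to 1.69% in lean rat 2. The intervals of obese rat 4, 3.14% to 3.67%, and of lean rat 3, 3.16% to 4.00%, overlapped. Such intervals cover counting error only. The pooled numbers were 958 macrophages in treated, 2126 in obese and 775 in lean rats.

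**Figure D1:**
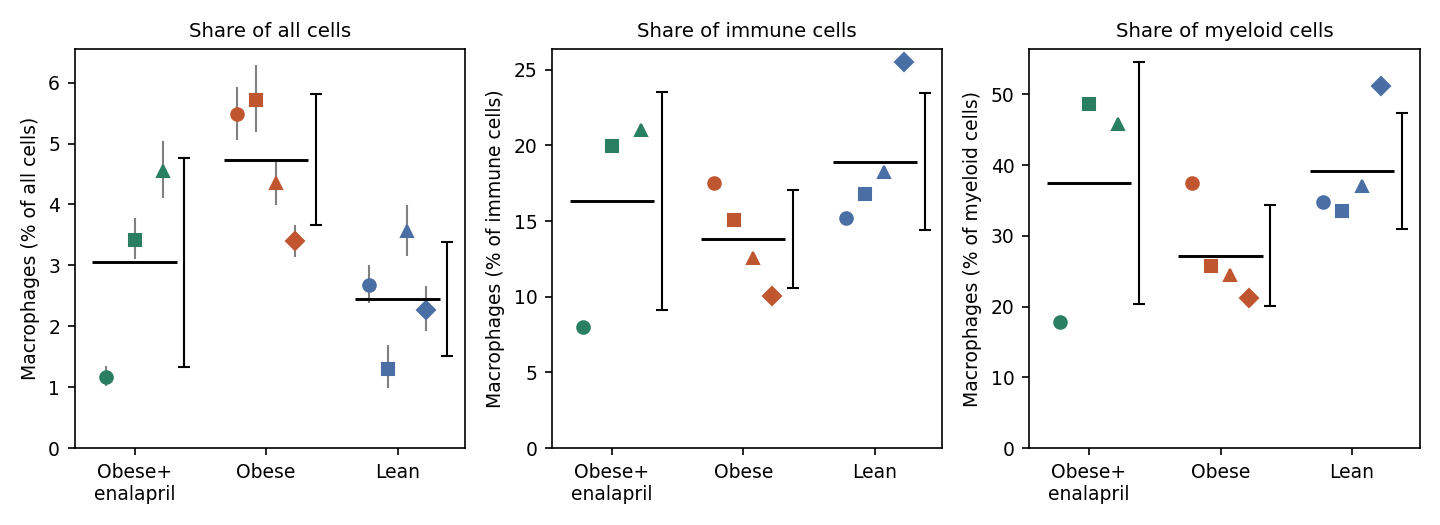
Macrophages as a percent of all cells, of immune cells and of myeloid cells, 1 point per animal (circle, square, triangle and diamond for animals 1 to 4), with the group mean as a bar, ± SD beside it, and exact 95% intervals as grey lines in the left panel. Obese rats average 4.74% of all cells, against 2.45% in lean rats, but lie lowest on average among immune and myeloid cells.

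Macrophages averaged 4.74% ± 1.07 of the cells in obese rats and 2.45% ± 0.937 in lean rats (SD, n = 4 each). In edgeR's quasi-likelihood test of cell numbers the log2 fold change was 0.94 ± 0.44 (SE), with an adjusted p of 0.0705 over 20 cell types, and so did not pass the threshold of 0.05. The same comparison called 12 of the 20 types, 60%. The other immune types were among them: monocytes differed by 1.66 ± 0.42 (adjusted p = 0.00461 in edgeR), Mono/Macro cells by 2.12 ± 0.43 (adjusted p = 0.000750), T cells by 1.13 (adjusted p = 0.0195) and B cells by 3.39 (adjusted p = 0.000131). Macrophages were thus the immune type with the smallest fold between obese and lean rats and the only one of the 5 that was not called. Whether that fold was smaller than those of the other types was not tested.

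The macrophage call turned on the setting. Counted against the non-immune cells of each animal, macrophages were at 7.24% ± 1.74 in obese rats and 2.89% ± 1.27 in lean rats (SD, n = 4 each), and passed (1.32 ± 0.47, adjusted p = 0.0288 in edgeR). They also passed when Mono/Macro cells were counted with them (1.17 ± 0.42, adjusted p = 0.0230 in edgeR). Without lean rat 3 edgeR gave 1.18 and an adjusted p of 0.0398, and without treated rat 1, which enters only through the shared estimate of spread, 0.94 and 0.0439. Without lean rat 2 the fold was 0.74 and the adjusted p 0.151.

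Treated obese rats held 3.05% ± 1.72 macrophages (SD, n = 3), against 4.74% ± 1.07 in untreated obese rats (SD, n = 4). The fold was -0.64 ± 0.48, with an adjusted p of 0.440 in edgeR. No type was called in this comparison, 0 of 20 (0%), with 2 at an unadjusted p below 0.05, and DESeq2 called 1. The treated value rested on rat 1, without which the fold was -0.25 (adjusted p = 0.751 in edgeR). Set against lean rats, treated rats differed by 0.31 ± 0.47 (adjusted p = 0.697 in edgeR), where 3 of 20 types (15%) were called.

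A second question was whether macrophages kept pace with the other immune cells. Immune cells, the sum of Mono, Macro, Mono/Macro, T and B cells, were 17.8% ± 3.55 of all cells with treatment (SD, n = 3), 34.4% ± 2.74 in untreated obese rats and 13.4% ± 5.96 in lean rats (SD, n = 4 each). Within them, macrophages made up 8.03%, 19.96% and 21.0% in treated rats 1 to 3. They made up 17.5%, 15.1%, 12.5% and 10.1% in obese rats 1 to 4, and 15.2%, 16.8%, 18.3% and 25.5% in lean rats 1 to 4. The means were 13.8% ± 3.22 in obese rats and 18.9% ± 4.54 in lean rats, and the groups overlapped through obese rat 1. For treated against untreated obese rats the difference was 2.53 percentage points, 6.69 without treated rat 1, 0.718 without treated rat 2 and 0.189 without treated rat 3. For obese against lean rats the exact two-sided permutation p was 0.114, or 0.343 adjusted over 12 such tests. The direction is opposite to that of the share of all cells, and neither difference passed.

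Among myeloid cells alone (Mono, Macro and Mono/Macro), macrophages were 17.8%, 48.7% and 45.9% in treated rats 1 to 3. They were 37.5%, 25.8%, 24.5% and 21.2% in obese rats, and 34.8%, 33.5%, 37.0% and 51.2% in lean rats. In 3 of the 4 obese rats the share was lower than in any lean rat. With the myeloid cells of each animal as the total, the log2 fold change in edgeR was -0.53 ± 0.31 for obese against lean rats (adjusted p = 0.187), 0.46 ± 0.33 for treated against untreated obese rats (adjusted p = 0.425), and -0.07 ± 0.34 for treated against lean rats (adjusted p = 0.893). Of the 17 types tested within their compartments, the 3 comparisons called 4 (23.5%), 1 (5.88%) and 5 (29.4%). Without the shallow animals, lean rat 2 and treated rat 1, macrophages reached the threshold for obese against lean rats (-0.58 ± 0.22, adjusted p = 0.0499 in edgeR) while treated against untreated obese rats gave 0.80 ± 0.24 (adjusted p = 0.0575 in edgeR).

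The same cells can be given as a ratio of macrophages to monocytes, the blood-derived cells from which many macrophages arise. There were 0.236, 1.15 and 1.10 macrophages per monocyte in treated rats 1 to 3. Obese rats 1 to 4 had 0.736, 0.387, 0.374 and 0.299, and lean rats 1 to 4 had 0.578, 0.598, 0.642 and 1.16. Every group crossed another: treated rat 1 lay below all other animals, while treated rats 2 and 3 and lean rat 4 were the only ones in which macrophages were the more numerous. The log2 ratio differed by -0.75 between obese and lean rats (exact two-sided permutation p = 0.114, adjusted p = 0.343) and by 0.66 between treated and untreated obese rats (exact p = 0.514, adjusted p = 0.771). The last difference was 1.41 without treated rat 1, 0.27 without treated rat 2 and 0.30 without treated rat 3.

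The UMIs per macrophage were compared next. Their median UMIs per cell were 897, 2174.5 and 2328 in treated rats 1 to 3. Obese rats 1 to 4 had 2251, 2226, 3554 and 2802.5, and lean rats 1 to 4 had 1197, 330, 2110 and 1540. Each obese rat lay above each lean rat, while treated rats 2 and 3 lay inside the obese range or just above the highest lean value. In limma over 16 types with at least 20 cells in every animal, the log2 difference was 1.32 ± 0.65 (SE) between obese and lean rats (adjusted p = 0.245), -0.68 ± 0.71 between treated and untreated obese rats (adjusted p = 0.918) and 0.64 ± 0.71 between treated and lean rats (adjusted p = 0.639). Without lean rat 2 the first was 0.76 ± 0.39 and the last 0.07 ± 0.41, and without treated rat 1 the other was -0.24 ± 0.80 and the last 1.08 ± 0.80, each uncalled in limma. The counts of types called by limma were 0 of 16 (0%) in each comparison, with 3, 0 and 1 at an unadjusted p below 0.05. For macrophages alone the exact two-sided permutation p between obese and lean rats was 0.0286, the smallest that 8 animals in equal groups can give. Depth of the whole library moved with this difference, as the median over all cells was 1939.5 to 3092 in obese rats and 407 to 2231 in lean rats.

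**Figure D2:**
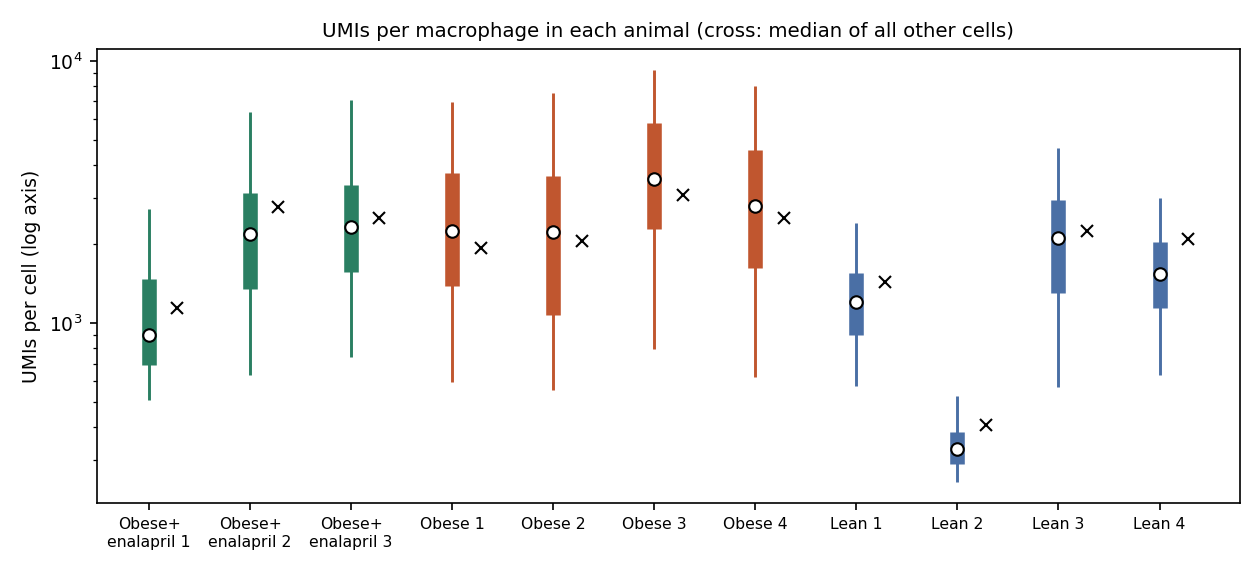
UMIs per macrophage in each animal on a log axis: the white circle is the median, the thick bar the middle 50% of cells, the thin line the 5th to 95th percentile, and the cross the median of all other cells of that animal. In the 4 obese rats the circle lies above the cross, and in the other 7 animals it lies below.

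To set library depth aside, the median of the macrophages was divided by the median of all other cells of the same animal. The ratio was 0.790, 0.786 and 0.929 in treated rats 1 to 3, 1.17, 1.09, 1.16 and 1.11 in obese rats 1 to 4, and 0.838, 0.809, 0.941 and 0.739 in lean rats 1 to 4. Macrophages thus held more UMIs than the typical other cell in all 4 obese rats and fewer in all 7 remaining animals, the shallow ones included. The medians of all other cells were 1135, 2766.5 and 2506 in treated rats 1 to 3. They were 1926.5, 2046, 3071 and 2516 in obese rats 1 to 4, and 1429, 408, 2242 and 2085 in lean rats 1 to 4. A ratio can differ through the macrophages or through the cells below the line, and which of them moved was not tested. The log2 ratio differed by 0.45 between obese and lean rats (exact two-sided permutation p = 0.0286) and by -0.44 between treated and untreated obese rats (exact p = 0.0571, the smallest that 3 against 4 animals can give). Treated and lean rats differed by 0.01 (exact p = 1). After adjustment over the 12 tests the first 2 p-values were both 0.343, and no test of this size could pass after adjustment. Leaving out any 1 animal kept the obese rats between 0.39 and 0.51 above the lean rats on this scale.

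**Figure D3:**
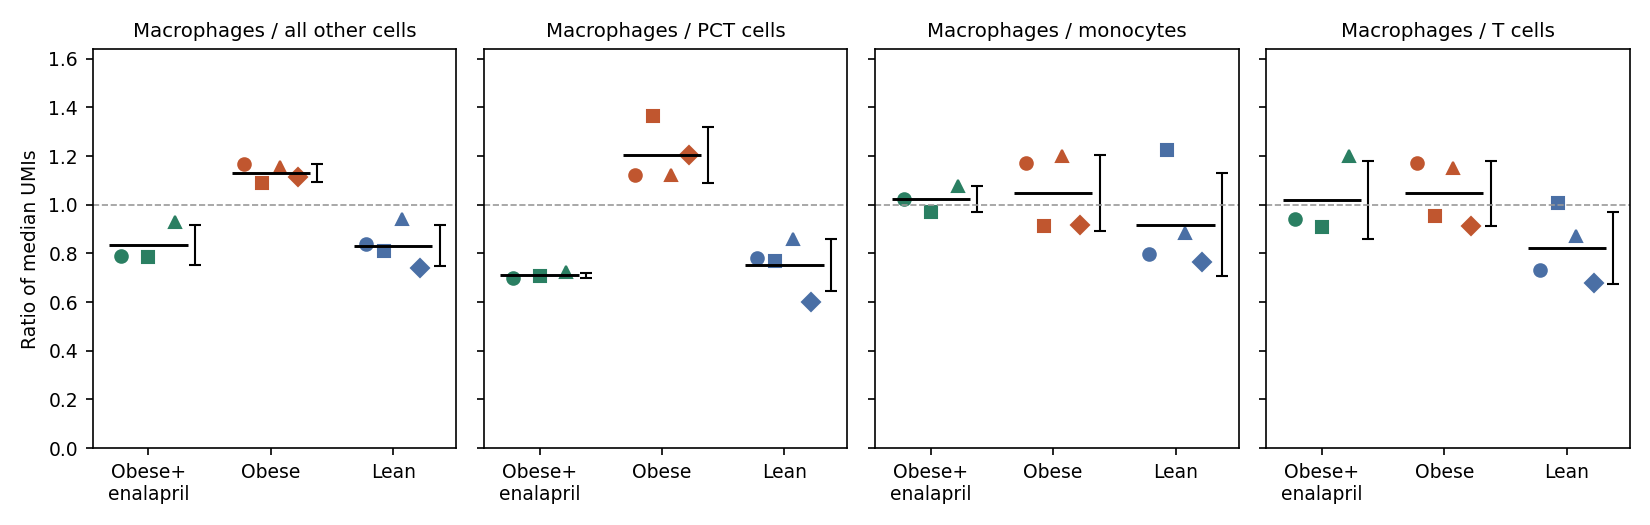
Median UMIs of macrophages divided by the median of all other cells, of PCT cells, of monocytes and of T cells of the same animal, 1 point per animal (circle, square, triangle and diamond for animals 1 to 4), with the group mean as a bar and ± SD beside it; the dashed line marks equal medians. Obese rats stand apart in the first 2 panels, while the groups overlap in the panels for monocytes and T cells.

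The ratio depends on what the macrophages are set against, and these further ratios were chosen after the first had been seen. Against PCT cells, read here as convoluted proximal tubule, the ratio was 0.700 to 0.722 in treated rats, 1.12 to 1.37 in obese rats and 0.603 to 0.858 in lean rats. The log2 ratio differed by 0.68 between obese and lean rats and by -0.76 between treated and untreated obese rats (exact permutation p = 0.0286 and 0.0571, adjusted p = 0.193 for both over 27 added tests). Whether the macrophages or the PCT cells moved in these differences was not tested. Against monocytes the ratio averaged 1.02 ± 0.0538 in treated rats (SD, n = 3), 1.05 ± 0.156 in obese rats and 0.918 ± 0.212 in lean rats (SD, n = 4 each), with overlapping groups (obese against lean, exact permutation p = 0.286). Against T cells the means were 1.02 ± 0.160, 1.05 ± 0.133 and 0.822 ± 0.147 in the same order, and the groups again overlapped (obese against lean, exact permutation p = 0.114). Of these comparison sets, the obese rats thus stood apart against all other cells and PCT cells and overlapped other groups against monocytes and T cells. Other types were not used as a denominator. When each type was set against the mean over all 16 types of its animal, limma gave 0.41 ± 0.15 for obese against lean rats (adjusted p = 0.109), -0.43 ± 0.17 for treated against untreated obese rats (adjusted p = 0.208) and -0.02 ± 0.17 for treated against lean rats (adjusted p = 0.946). The types called were 1 of 16 (6.25%), 0 (0%, with 2 at an unadjusted p below 0.05) and 1 (6.25%), with DTL called both times.

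The groups lay farthest apart among the UMI-rich cells. Among cells with 4000 UMIs or more, macrophages made up 0.647%, 1.80% and 2.51% in treated rats 1 to 3, 6.42%, 8.04%, 5.23% and 4.29% in obese rats 1 to 4, and 0.399%, 1.22% and 0% in lean rats 1, 3 and 4. Cells of that size numbered 309 to 3730 per treated rat, 1120 to 4517 per obese rat and 0 to 1716 per lean rat, with none in lean rat 2, and in lean rat 4 there were 0 macrophages among 1447 of them. The part of library depth in this difference was not tested. Every obese rat lay above every other animal in this range (exact permutation p = 0.0571 for obese against lean rats and for treated against untreated obese rats, adjusted p = 0.193). This test was not planned, and the other ranges of UMIs had no such test and do not enter the adjustment. The separation and the p-values therefore describe a range picked from these data. Among cells with 1000 to under 2000 UMIs, in contrast, the mean was 3.73% ± 2.41 for treated rats (SD, n = 3), 3.76% ± 0.900 for obese rats (SD, n = 4) and 3.65% ± 0.0076 for lean rats without lean rat 2 (SD, n = 3). Seen from the macrophages, 0.948%, 17.1% and 16.6% of them had at least 4000 UMIs in treated rats, 20.7%, 22.3%, 42.7% and 31.0% in obese rats, and 1.34%, 0%, 7.66% and 0% in lean rats.

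**Figure D4:**
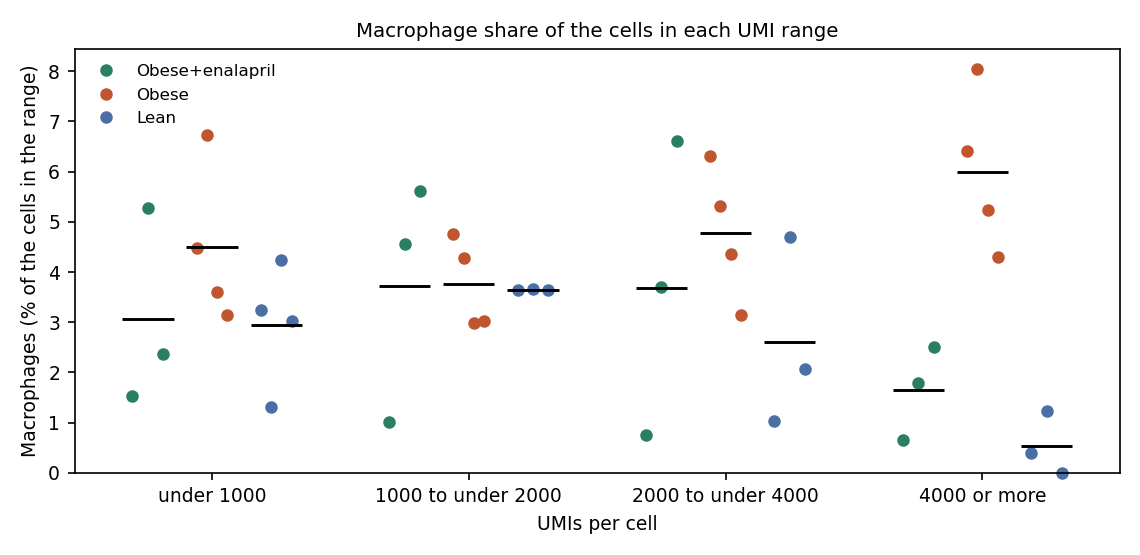
Macrophages as a percent of the cells in 4 ranges of UMIs per cell, 1 point per animal, with the group mean as a bar; Lean 2 is absent above 1000 UMIs because it had 12 such cells. Group means lie between 3.65% and 3.76% in the range of 1000 to under 2000 UMIs and spread from 0.541% in lean rats to 5.99% in obese rats at 4000 UMIs or more.

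Genes detected per macrophage went with the UMIs, as Spearman's correlation between them over the cells of an animal was 0.883 to 0.979. The median was 470, 866.5 and 803 genes in treated rats, 860, 857, 1316 and 1057.5 in obese rats, and 556, 205, 883 and 694 in lean rats. The log2 differences in limma were 0.97 ± 0.52 for obese against lean rats (adjusted p = 0.343), -0.55 ± 0.56 for treated against untreated obese rats (adjusted p = 0.952) and 0.42 ± 0.56 for treated against lean rats (adjusted p = 0.788), and 0 of 16 types (0%) were called in each, with 2, 0 and 1 at an unadjusted p below 0.05. Without lean rat 2 the first was 0.53 ± 0.30 and the last -0.020 ± 0.32, and without treated rat 1 the other was -0.27 ± 0.65 and the last 0.70 ± 0.65. At a like number of UMIs, 1000 to under 2000, the mean was 640 ± 35.8 genes for macrophages of treated rats (SD, n = 3), 679 ± 49.7 for those of obese rats (SD, n = 4) and 666 ± 42.8 for those of lean rats without lean rat 2 (SD, n = 3). The exact permutation p was 0.286 for treated against untreated obese rats and 0.743 for obese against lean rats. From 2000 to under 4000 UMIs the means were 975 ± 63.7 genes with treatment (n = 3), 1077 ± 66.2 in untreated obese rats (n = 4) and 998 ± 81.3 in lean rats without lean rat 2 (n = 3). There the differences were larger, -102.0 genes for treated against untreated obese rats (exact permutation p = 0.171) and 78.5 for obese against lean rats (exact permutation p = 0.229). At 1000 to under 2000 UMIs, over the 10 animals with enough cells, macrophages held 663 genes and monocytes 766. Monocytes were higher in 10 of 10, which describes the clusters and is not a test.

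The mitochondrial share of UMIs is used as a sign of cell stress or of high energy use, and tubule cells are rich in mitochondria. In macrophages its median was 1.95%, 4.35% and 9.63% in treated rats 1 to 3, 8.83%, 9.01%, 3.87% and 6.68% in obese rats 1 to 4, and 6.37%, 0.290%, 5.76% and 5.89% in lean rats 1 to 4. All groups overlapped, and lean rat 2 was near 0. The differences in limma, in percentage points, were 2.52 ± 2.60 for obese against lean rats (adjusted p = 0.419), -1.79 ± 2.81 for treated against untreated obese rats (adjusted p = 0.669) and 0.73 ± 2.81 for treated against lean rats (adjusted p = 0.834). Without lean rat 2 the first was 1.09 ± 2.66 and the last -0.69 ± 2.84, and without treated rat 1 the other was -0.10 ± 3.03 and the last 2.42 ± 3.03. The first and last comparison each called 1 of 16 types (6.25%, the DCT cells), and the other called 0 (0%), with 1 at an unadjusted p below 0.05. The macrophage median was below that of PCT cells in 11 of 11 animals, at a mean of 5.69% against 16.1%, and above that of monocytes in 10 of 11, at 5.69% against 4.20%. Macrophages with 20% or more mitochondrial UMIs were 10.0% ± 7.81 in treated rats (SD, n = 3), 15.4% ± 5.29 in obese rats and 12.2% ± 8.79 in lean rats (SD, n = 4 each).

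The authors' cell cycle calls divided the macrophages almost evenly, with 1317 in G1 (34.1%), 1304 in S (33.8%) and 1238 in G2M (32.1%). The calls are not taken here as cycling: the median S score of cells called S was 0.0368, and cells called G1 had a median of 1783 UMIs, against 2392 for S and 2258.5 for G2M. The part of depth or of free RNA in the calls was not tested. Macrophages called S were 33.4% ± 5.99 in treated rats (SD, n = 3), 34.1% ± 2.31 in obese rats and 26.9% ± 12.4 in lean rats (SD, n = 4 each). The differences in limma were 7.21 ± 5.75 percentage points for obese against lean rats (adjusted p = 0.543), -0.74 ± 6.21 for treated against untreated obese rats (adjusted p = 0.915) and 6.47 ± 6.21 for treated against lean rats (adjusted p = 0.799), with 0 of 16 types called in each (0%) and 0, 0 and 1 at an unadjusted p below 0.05. Lean rat 2 had 9.09% called S, against 27.9% to 35.8% in the other lean rats, and without it the first difference was 1.28 ± 3.37 and the last 0.54 ± 3.60. Without treated rat 1 they were 2.67 ± 7.20 for treated against untreated obese rats and 9.88 ± 7.20 for treated against lean rats. Called G2M were 29.1% ± 2.81 in treated rats (SD, n = 3), 34.5% ± 3.91 in obese rats and 29.5% ± 1.24 in lean rats (SD, n = 4 each). Here the differences in limma were 4.99 ± 2.44 (adjusted p = 0.119), -5.34 ± 2.63 (adjusted p = 0.246) and -0.36 ± 2.63 (adjusted p = 0.997), in the same order of comparisons. The 3 types called among 16 for obese against lean rats (18.8%) were DCT, Mono and TAL cells, and the other 2 comparisons called 0 (0%), with 3 and 1 at an unadjusted p below 0.05.

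A small part of the macrophages had an S or G2M score above 0.2, beyond the 95th percentile of either score, which was 0.0906 for S and 0.0761 for G2M. There were 83 such cells (2.15% of macrophages), 24 of them above the limit in both scores, and 26 further cells had a higher score between 0.15 and 0.2. In 17 of the 83 the higher score lay between 0.2 and 0.25, so the limit marks no gap in the scores. They were 1.90%, 1.79% and 3.38% of the macrophages in treated rats 1 to 3, 2.86%, 2.98%, 2.39% and 1.92% in obese rats 1 to 4, and 1.00%, 1.82%, 1.09% and 0% in lean rats 1 to 4. Each obese rat lay above each lean rat, by as little as 1.92% against 1.82% (exact permutation p = 0.0286, adjusted p = 0.193, an added test that was not planned), and the treated rats overlapped the obese ones. The lean values rest on 3, 1, 3 and 0 cells, and the 0 of 147 macrophages in lean rat 4 allows a share of up to 2.04%. These cells had a median of 5218 UMIs, against 2104 for the other macrophages. Among macrophages with at least 2000 UMIs the share was 5.78% ± 3.33 for treated rats (SD, n = 3), 3.14% ± 0.904 for obese rats (SD, n = 4) and 2.76% ± 3.65 for lean rats without lean rat 2 (SD, n = 3), with overlapping groups. These shares rest on few cells: 3 of 32, 6 of 215 and 11 of 213 in treated rats 1 to 3, and 8 to 12 per obese rat. In lean rats 1, 3 and 4 they were 2 of 29, 2 of 146 and 0 of 39. By the mean over animals macrophages ranked 3rd of 20 types in this share, at 1.92%, behind T cells at 4.55% and Mono/Macro cells at 2.16%, while monocytes were at 0.102%.

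**Figure D5:**
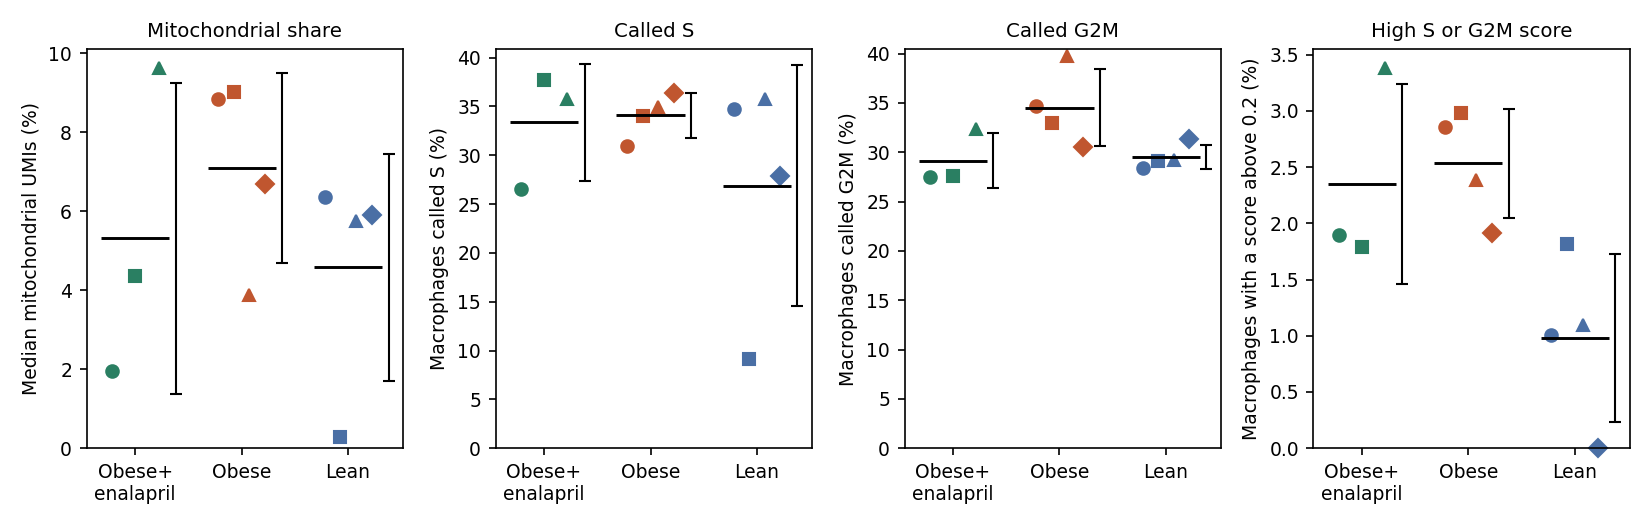
Median mitochondrial share of UMIs and the percent of macrophages called S, called G2M, or with an S or G2M score above 0.2, 1 point per animal (circle, square, triangle and diamond for animals 1 to 4), with the group mean as a bar and ± SD beside it. Lean 2, the square in the lean group, lies at 0.290% mitochondrial UMIs and 9.09% called S, and obese rats lie at or above 1.92% in the last panel.

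On the authors' two-dimensional map the macrophages formed 1 main group with few strays. Of the 20 nearest cells on the map, 95.7% on average were macrophages too, against 99.2% for monocytes and 89.0% for Mono/Macro cells. How the map and the clusters were made is not stated, so the map is not taken as a separate check of the clusters. Mono/Macro cells were the most common other neighbour of the main group, at 0.901%. There were 131 macrophages (3.39%) with most of their neighbours of other types. Among the neighbours of those 131 cells, 48.5% were PCT/PST, 15.8% PCT and 9.58% Mono/Macro cells. They were 26 cells in treated, 83 in obese and 22 in lean rats, with a median of 1694 UMIs, against 2141 in the main group. Their share of the macrophages was 3.03% ± 2.34 in treated rats (SD, n = 3), 3.72% ± 1.92 in obese rats and 4.53% ± 4.33 in lean rats (SD, n = 4 each), and did not separate the groups. How doublets were treated before deposit is not stated, and no doublet call could be made without gene values.

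The share of macrophages also varied with the mitochondrial share of the cells. Under 5% they were 4.55% ± 2.48 with treatment (n = 3), 6.34% ± 2.14 in untreated obese rats and 2.96% ± 1.25 in lean rats (n = 4 each). In the range from 5% to under 10% their share averaged 5.41% ± 4.93 in treated rats (SD, n = 3), 7.71% ± 3.11 in obese rats and 3.54% ± 2.02 in lean rats (SD, n = 4 each). At 20% or more they were 1.06% ± 0.632 in treated rats, 2.10% ± 0.800 in obese rats and 1.26% ± 0.874 in lean rats. With all cells of 20% or more left out, the fold between obese and lean rats was 1.14 ± 0.53 (adjusted p = 0.0761 in edgeR).

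The macrophage share was also set against library depth over the 11 animals. Its Pearson correlation with the median UMIs over all cells was 0.62 (permutation p = 0.0396, adjusted p = 0.0791 over 2 relations) and Spearman's rho was 0.43 (permutation p = 0.194, adjusted p = 0.387). Without lean rat 2 and obese rat 3, the animals farthest from the median depth, r was 0.45 over 9 animals (permutation p = 0.224). With the number of cells recovered, r was -0.13 (permutation p = 0.699, adjusted p = 0.699) and rho -0.08 (permutation p = 0.820, adjusted p = 0.820). Without obese rat 4 and treated rat 1, the animals farthest from the median number of cells, that r was 0.40 (permutation p = 0.283), so its sign rested on those animals. As deviations from the group means, r was 0.48 with depth and -0.64 with the number of cells, given as a description over animals of all groups, since each group alone holds under 5 animals.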

How the data were processed

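The authors deposited 1 table of cells without gene values. Its UMIs and genes of each cell are raw counts, per the file headers and their whole-number values. The mitochondrial share is deposited as a percent of UMIs and did not exceed 49.99. S, G2M and map values were deposited as a score with no stated method. Seurat 4.3.0, Cell Ranger 7.0.1 and the build rn6 are named, without roles, per the submitters' processing notes. No cell had more than 2971 genes, and the lowest UMIs per cell were 193 in lean rat 2 and 469 in the other animals. Whether filters set these limits is not stated, and their part in the comparisons of UMIs was not tested. Filters, doublet removal and clustering: not given in the sources used here.

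Cells were assigned to animals through the sample codes in the labels, and the animal was the replicate. The 11 libraries held 1817129 to 56007489 UMIs. Cell numbers per type were tested with edgeR 4.0.16 (quasi-likelihood, robust, no trend, all cells of the animal as total, 3 contrasts in 1 fit). Endo (38 cells) fell under the minimum mean of 10 cells an animal, which left 20 types. The same test used the cells of the compartment as the total for 17 types. Medians and percents per type were compared with limma 3.58.1 (robust). Benjamini-Hochberg adjustment ran over the types within a contrast, with a threshold of 0.05. Single values had exact two-sided permutation tests. Fold changes are log2 ± SE. Ranges of UMIs stand in for thinning, which needs gene values. The edgeR test of the share of all cells was checked on simulated counts. In limma the check used simulated medians, with a log2 shift larger than any macrophage log2 difference given here. The compartment test, DESeq2 and the permutation tests were not checked in this way.

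Alternatives were DESeq2 1.42.0, limma on logit shares, other totals, filters on cells, each animal left out and the replicate number as a block. Python 3.11.15 (scipy 1.17.1, pandas 2.3.3, numpy 2.4.6, matplotlib 3.10.9) and R 4.3.3 were used. The members, lists and tests were chosen with earlier results of these data known. Macrophages are named throughout with Mono, Mono/Macro, T and B cells beside them, and other types only where a description or a count of 5 or fewer concerns them. The names PCT, PST, DTL, TAL and DCT are the authors' own, and PCT cells were chosen as a tubule comparison after the ratios to all other cells were seen.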

Additional observations from a re-analysis of the deposited data

Results flagged for a closer look

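Among 43 groups of 4 animals examined over 22 measures of the macrophages, 3 held an animal far from the others of its group, where chance alone gives about 1 in 20. Lean rat 4 had 1.16 macrophages per monocyte, against 0.578 to 0.642 in the other lean rats. Lean rat 2, the shallowest library, had a median mitochondrial share of 0.290%, against 5.76% to 6.37% in the other lean rats. In obese rat 3, the deepest library by median UMIs, 25.2% of the macrophages were called G1, against 33.0% to 34.3% in the other obese rats.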

How the results depend on the processing

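Of 481 values under other settings, over 36 results, 442 kept their direction and side of the threshold, and 7 newly passed it. Another 30 turned round and 2 counts moved by more than 1.5 times, and the cause was not tested. Permutation values under other settings were judged on an unadjusted p, and main values on an adjusted p. Those permutation values with 1 animal left out could not fall below 0.05, so their side of the threshold was fixed in advance. For the share of all cells, obese against lean rats passed with DESeq2's own size factors (0.97, adjusted p = 0.0245, added after the data were seen), with non-immune cells as the total (1.32) and with Mono/Macro cells included (1.17), and with animals left out 1 at a time it ranged over 0.74 to 1.18 (adjusted p 0.0398 to 0.163). The share of myeloid cells passed without lean rat 2 and treated rat 1 (-0.58, an added alternative). For obese against lean rats the median UMIs passed only in the exact permutation test of macrophages alone (1.32, unadjusted p = 0.0286). That p is not adjusted over types as the p of limma is.

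Most reversals were in treated against lean rats. Without 1 animal, the share of all cells ranged over -0.10 to 0.70, of myeloid cells over -0.30 to 0.27, genes over -0.020 to 0.70, mitochondrial percent over -1.43 to 2.42, percent called G2M over -1.98 to 0.47, percent of immune cells over -4.94 to 1.55, log2 macrophages per monocyte over -0.49 to 0.66 and the log2 UMI ratio over -0.072 to 0.069. The myeloid share was 0.043 with Mono/Macro cells included and 0.22 without lean rat 2 and treated rat 1, without which the G2M difference was 0.33. Relative to the other types, UMIs were at -0.015 and genes at -0.022. Among cells with at least 1000 UMIs, which leaves out lean rat 2, treated against lean values were 0.019 for the myeloid share, -1.12 for mitochondrial percent, -2.44 for S and 4.08 for G2M, and obese against lean was -0.12 for S. Treated against untreated obese values for S ranged over -2.94 to 2.67, with 2.67 without the shallow animals. Genes at 1000 to under 2000 UMIs ranged over -12.0 to 28.2 for obese against lean rats without 1 animal, and differed by 78.5 from 2000 to under 4000 UMIs. DESeq2 called 5 types for treated against lean rats, against 3 in edgeR, and 1 for treated against untreated obese rats, against 0.

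The 10 pairs of animals with the same replicate number correlated at -0.44 to 0.52, and the other pairs across groups at -0.57 to 0.52. The median r was 0.16 in same-number pairs and -0.0042 in other pairs. Whether the replicate numbers pair the animals was not tested. With the replicate block the 21 values kept their side, with 0.98 ± 0.44 (adjusted p = 0.0835 in edgeR) for the share of all cells in obese against lean rats. A relation of macrophage to monocyte share was not computed, because the obese rats lie apart in monocyte share. With 4 against 4 animals or fewer no exact test could pass after adjustment, and lean rat 2 gives no value above 1000 UMIs.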
